A study of Mus musculus with 2 samples.

Results

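Mir183, Mir96 and Mir182 are 3 neighbouring microRNA (miRNA) genes that are read as a single cluster. They were followed in small RNA libraries of C2C12, a mouse myoblast line from thigh muscle of the C3H strain that was obtained from a cell bank. The members were taken by symbol from the GENCODE M21 annotation, and all 3 were found among the 2202 miRNA genes of the deposited tables. The study holds 2 libraries of RNA shorter than 30 bases, labelled as biological replicates 1 and 2 of the same group and drawn from separate biosamples. Both come from an unmodified line with no treatment, time or culture stage in the labels, so levels and their make-up are described and no condition is compared. Only the libraries can be set against each other, and such a test speaks of these libraries alone.

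A miRNA gene is transcribed as a hairpin, from which 1 or both arms are cut out as mature miRNAs. Bases 2 to 8 of the mature strand, the seed, pair with sites in the 3′ untranslated region (3′ UTR) of target mRNAs and lower their output. The miR-183, miR-96 and miR-182 cluster is best known from sensory organs such as the retina and the inner ear, where mutations in the miR-96 seed cause progressive hearing loss. Its members have also been reported to act on FoxO transcription factors, which in muscle switch on genes of protein breakdown during atrophy. MiR-182 has been reported to target Foxo3 in muscle cells.

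The mature 5′ arms show how alike the 3 products are. RefSeq gives them on GRCm38.p6, the assembly of mm10, and they are printed with the seed in capitals.
miR-183-5p: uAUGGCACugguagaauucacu
miR-96-5p: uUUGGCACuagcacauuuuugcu
miR-182-5p: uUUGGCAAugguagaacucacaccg
The seeds of miR-96-5p and miR-182-5p were identical at 6 of 7 positions, those of miR-183-5p and miR-96-5p at 6 of 7, and those of miR-183-5p and miR-182-5p at 5 of 7. Counted from the 5′ end without gaps, miR-183-5p and miR-182-5p shared 18 of 22 bases, while miR-183-5p and miR-96-5p shared 13 of 22 and miR-96-5p and miR-182-5p 12 of 23. Over all 7 bases each of the 3 thus has a seed of its own. Those of miR-96-5p and miR-182-5p differ only in the last base, so their first 6 bases are the same. Among 1679 mature mouse miRNAs in the RefSeq table, no other carried the seed of miR-183-5p or miR-182-5p. The seed of miR-96-5p was carried by miR-1271-5p as well (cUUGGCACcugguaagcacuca). The gene of miR-1271-5p, Gm24195 in RefSeq, had 0 reads in both libraries, which allows up to 0.108 counts per 1000000 counts on miRNA genes in replicate 1 and 0.2 in replicate 2.

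The counts are per hairpin and do not separate its arms, so the hairpins are shown whole, with both annotated mature arms in capitals.
Mir183: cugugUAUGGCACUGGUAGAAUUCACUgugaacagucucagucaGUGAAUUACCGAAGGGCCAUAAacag
Mir96: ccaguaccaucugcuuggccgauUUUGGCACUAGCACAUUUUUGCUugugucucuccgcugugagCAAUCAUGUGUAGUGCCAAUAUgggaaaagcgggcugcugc
Mir182: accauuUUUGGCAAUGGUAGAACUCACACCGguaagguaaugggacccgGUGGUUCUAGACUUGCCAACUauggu
No hairpin of the cluster shared a stretch of 20 bases, or even of 15, with any of the other hairpins among the 1005 in that table. Reads of the members therefore had no miRNA hairpin there with an identical stretch of that length to be confused with. Likeness with mismatches, hairpins outside that table and the rest of the genome were not searched.

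On mm10 all 3 hairpins lie on the minus strand of chromosome 6, Mir183 at chr6:30169668-30169737, Mir96 at chr6:30169446-30169551 and Mir182 at chr6:30165918-30165992. Transcription runs from Mir183 over Mir96, after a gap of 116 bases, to Mir182, after a further 3453 bases. GENCODE M21 places no other gene over them, and the nearest protein-coding genes are Nrf1, 12459 bases from Mir182, and Ube2h, 41551 bases from Mir183. RefSeq adds a noncoding host transcript on the same strand, Mirc35hg, which spans chr6:30158640-30174125 and all 3 hairpins. Its exons were not used here, so the hairpins are not assigned to an exon or an intron. The noncoding gene Rncr4 lies 3155 bases from Mir183 on the opposite strand.

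**Figure D1:**
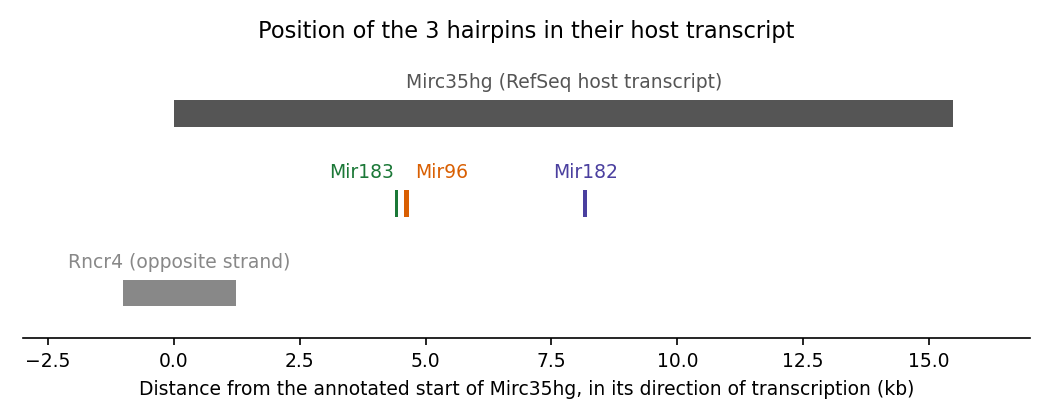
Bars show the annotated extent of each gene along the host transcript, in kb from the annotated start of Mirc35hg in its direction of transcription. Mir183 and Mir96 stand 116 bases apart and Mir182 lies 3453 bases further on.

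The sites that a FoxO mRNA would offer were searched as the 7 bases complementary to each seed, in the longest 3′ UTR that GENCODE M21 gives for each of the 4 mouse FoxO genes. These were GTGCCAT for miR-183-5p, GTGCCAA for miR-96-5p and TTGCCAA for miR-182-5p, on the mRNA strand. Only matches to all 7 bases were counted, and shorter matches were not searched. The matches of miR-96-5p and miR-182-5p share the 6 bases TGCCAA, so each of them also pairs with bases 2 to 7 of the other miRNA. Foxo1, a FoxO factor of metabolism and muscle atrophy, held 1 match for each of the 3 miRNAs. Those of miR-183-5p and miR-96-5p began at positions 234 and 260 of its UTR, and that of miR-182-5p at position 3901. They lie on the plus strand at chr3:52347206-52347230, chr3:52347232-52347256 and chr3:52350873-52350897, printed with the matched bases in capitals.
Foxo1, miR-183-5p: ataaggactGTGCCATtgggaatca
Foxo1, miR-96-5p: tacaatgaaGTGCCAAactcactac
Foxo1, miR-182-5p: tgtttgctcTTGCCAAaagctgccg
Foxo3 held 2 matches for miR-182-5p, at positions 73 and 892, and none of all 7 bases for the other members. On the minus strand they are at chr10:42186243-42186267 and chr10:42185424-42185448.
Foxo3, first match: gaaaaccctTTGCCAAatctgctct
Foxo3, second match: ctctgcccgTTGCCAAatgccacga
Foxo4 held 1 match for miR-96-5p and none for the others, and Foxo6 held none for any member. The share of UTRs with such a match grows with the length searched. Among the first 6240 bases of 395 UTRs at least as long as that of Foxo1, 32.9% held the miR-183-5p match, 31.9% the miR-96-5p match and 35.9% the miR-182-5p match. For the 4490 bases of Foxo3, 31.3% of 1066 windows held the miR-182-5p match, and for the 1351 bases of Foxo4, 7.77% of 8182 windows held the miR-96-5p match. All these shares are of windows with at least 1 match. Shares with 2 matches, as in Foxo3, or with all 3 kinds together, as in Foxo1, were not counted. These letters describe the reference genome, and no target mRNA was measured in these libraries.

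The cluster was well expressed. Mir182 led in both libraries, followed by Mir183 and then Mir96. Levels are counts on the strand of the gene per 1000000 such counts (CPM), with exact (Clopper-Pearson) 95% intervals that cover counting error only. They were not divided by hairpin length, since the annotated mature strands are of like length (21 to 25 bases). How readily each sequence enters a library was not measured, so the order, shares and ratios of the members are those of reads. Mir182, the member with whole-seed matches in Foxo3, gave 30877 reads in replicate 1 against 13701 in replicate 2. These were 1116 CPM (1104 to 1129) and 912 CPM (897 to 927). The mean of Mir182 was 1014 ± 145 CPM (SD, n = 2). Mir183 had 16932 and 5043 reads, or 612 CPM (603 to 621) and 336 CPM (326 to 345), a mean of 474 ± 196 CPM. Mir96, the member tied to hearing, had 11693 and 2279 reads, or 423 CPM (415 to 430) and 152 CPM (145 to 158), a mean of 287 ± 192 CPM. All 3 were lower in replicate 2 on this scale. Its total is shared with Mir21a, which held 23.1% of replicate 1 and 53.5% of replicate 2. The mean levels of Mir182 and Mir183 differed by more than either SD, while those of Mir183 and Mir96 differed by less than the SD of each. These SDs describe the spread between the libraries. Within each library Mir183 stood above Mir96, with counting intervals that did not overlap.

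**Figure D2:**
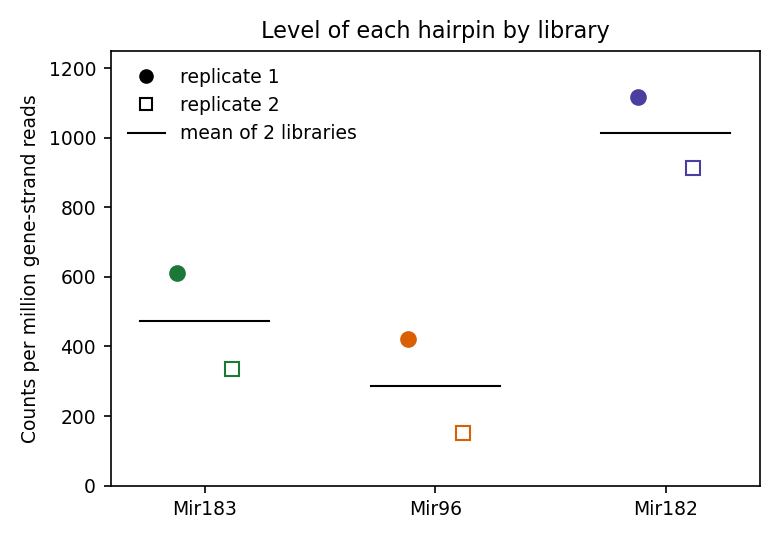
Points give the CPM of each hairpin in replicate 1 (filled circles) and replicate 2 (open squares), with 95% counting intervals that are smaller than the symbols, and lines give the mean of the 2 libraries. Mir182 stands highest and Mir96 lowest in both libraries.

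Among all 2202 genes Mir182 ranked 71st by mean CPM, Mir183 85th and Mir96 99th. By library, Mir182 ranked 72nd and 67th, Mir183 85th and 88th, and Mir96 96th and 114th in replicates 1 and 2. Mir182 stood between Mir181d at 1014 ± 240 CPM and Mir181c at 969 ± 408 CPM. Mir183 stood between Mir374b at 519 ± 276 CPM and Mir224 at 444 ± 51.8 CPM. Mir96 stood between Mir301 at 310 ± 31.2 CPM and Mir125b-2 at 284 ± 97.4 CPM (SD, n = 2 for each). No member differed from these neighbours in rank by more than the larger SD of the pair. The neighbours were picked as next in mean CPM, so this closeness follows from the choice.

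Together the members gave 59502 reads in replicate 1 against 21023 in replicate 2, or 0.215% (exact 95% interval 0.213 to 0.217) and 0.14% (0.138 to 0.142) of the gene-strand counts, a mean of 1775 ± 532 CPM (SD, n = 2). The sum of the 3 members thus stood in the range of a single skeletal muscle miRNA gene, Mir206, which had 2559 and 1028 CPM. Each member alone was below Mir206 in both libraries. Markers of other tissues that use this cluster were low. The 7 epithelial genes (the Mir200 family, Mir203 and Mir205) summed to 24.3 and 19 CPM, led by Mir205 at 9.26 and 8.79 CPM. A gene is counted here as detected where each library gave it 1 CPM or more. Of 10 sensory and neural genes 1 was detected, Mir219a-1 at 26.1 and 8.65 CPM. Mir204, abundant in the retinal pigment epithelium, had 2.06 and 0.865 CPM. The neural Mir124a and Mir9 genes had at most 2 reads, but all of them have near-identical copies and their reads may have been lost to multiple mapping. Blood genes summed to 220 and 126 CPM, nearly all from Mir142 at 215 and 122 CPM. Of the 7 muscle genes, 3 were detected in both libraries, Mir206, Mir133b and Mir486. Mir1a-1, Mir133a-1 and Mir133a-2, which also have near-identical copies, were at 0.

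The make-up of the cluster differed between the libraries, and a share within a library needs no scaling between them. Mir182 made up 51.9% of the cluster's reads in replicate 1 (exact 95% interval 51.5 to 52.3) and 65.2% in replicate 2 (64.5 to 65.8). Mir183 made up 28.5% (28.1 to 28.8) and 24.0% (23.4 to 24.6). Mir96 made up 19.7% (19.3 to 19.97) and 10.8% (10.4 to 11.3). The intervals of the 2 libraries did not overlap for any member, so the differences went beyond counting error. Counting error is narrow at this depth, and such intervals were not taken for other clusters. In the test between the libraries described below, 85.0% of the genes within 2-fold of the level of Mir96 were called. The share was 87.1% for Mir183 and 96.9% for Mir182. From replicate 1 to replicate 2 the share of Mir182 was 13.3 percentage points higher, that of Mir183 fell by 4.47 points and that of Mir96 fell by 8.81 points. As means the shares were 58.5% ± 9.39, 26.2% ± 3.16 and 15.3% ± 6.23 (SD, n = 2).

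**Figure D3:**
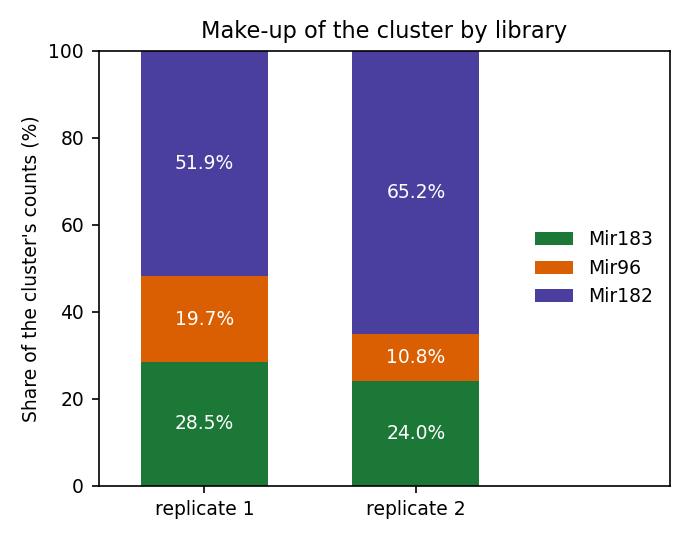
Stacked bars give the share of the cluster's gene-strand counts, in percent, that each hairpin held in replicate 1 and replicate 2. Mir182 held 51.9% and 65.2%, and Mir96 19.7% and 10.8%.

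Ratios of 2 members show the same data without a common total. Mir182 had 1.82 reads for each read of Mir183 in replicate 1 (exact 95% interval 1.79 to 1.86) and 2.72 in replicate 2 (2.63 to 2.81). Against Mir96 it had 2.64 (2.58 to 2.70) and 6.01 (5.75 to 6.29). Mir183 had 1.45 reads for each read of Mir96 (1.41 to 1.48) and 2.21 (2.11 to 2.33), although these hairpins are the closest neighbours in the cluster. The ratio of Mir182 to Mir96 was thus 2.28 times as high in replicate 2 (counting interval 2.17 to 2.39). That of Mir182 to Mir183 was 1.49 times as high (1.44 to 1.55) and that of Mir183 to Mir96 1.53 times (1.45 to 1.61). The order Mir182, Mir183, Mir96 was the same in both libraries.

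To set single members between the libraries, the counts were scaled by trimmed means (TMM), which adds 0.90 to all log2 ratios of replicate 2 over replicate 1 compared with library totals. A two-sided exact binomial test was run on 556 genes with at least 10 counts, with Benjamini-Hochberg adjustment over all of them. It called 231 genes (41.5%), 137 higher (24.6%) and 94 lower (16.9%) in replicate 2. Of the members, 1 was called higher, 1 lower and 1 was not called. Mir96 was lower in replicate 2 by 1.5-fold, a log2 ratio of -0.58 (counting SE 0.03, adjusted p = 1.65e-74, exact binomial test). Mir182 was higher by 1.52-fold, a log2 ratio of 0.61 (counting SE 0.01), and passed the same test. Mir183 had a log2 ratio of 0.03 (counting SE 0.02, adjusted p = 0.327, exact binomial test). The 3 tested muscle genes were all called lower in replicate 2 by the same test, with log2 ratios of -0.42 for Mir206, -1.21 for Mir133b and -0.87 for Mir486. The summed muscle list had 2651 and 1050 CPM. The part of this shift in the members' ratios was not tested. The direction of the members rests on the scaling for Mir183 and Mir182. By library totals all 3 were lower in replicate 2, Mir183 with a log2 ratio of -0.87, Mir96 with -1.48 and Mir182 with -0.29. By totals without Mir21a, Mir183 was called lower (-0.14), Mir96 remained lower (-0.75) and Mir182 higher (0.44). With DESeq2 size factors the log2 ratios were -0.03, -0.64 and 0.54. Calls over all genes numbered 330 (59.4%) by totals, 26 higher (4.68%) and 304 lower (54.7%). By totals without Mir21a they numbered 232 (41.7%), 94 higher (16.9%) and 138 lower (24.8%), and with DESeq2 231 (41.5%), 124 higher (22.3%) and 107 lower (19.2%).

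The differences of Mir96 and Mir182 passed a test of counting noise, but neither was larger than the spread between replicates over all tested genes. The common coefficient of variation of the libraries in edgeR was 34.3%. This implies an SD of 0.70 for the log2 ratio of 2 replicates, and each member lay within it. The coefficient was estimated over the tested genes of these same 2 libraries, the members among them. Lying within that SD is therefore a description and no test. The coefficient also implies an SD of 0.99 for the difference between 2 such log2 ratios. Mir182 and Mir96 were 1.19 apart, or more than 1 such SD. Genes with as many reads pass the test readily. Of the genes within 2-fold of the level of Mir96, 34 of 40 were called, as were 27 of 31 for Mir183 and 31 of 32 for Mir182. Within these ranges of level, 38 of 40 genes had a higher log2 ratio than Mir96 and 2 a lower one. For Mir182, 7 of 32 had a higher ratio, and for Mir183, 16 of 31. The SD of the log2 ratios was 0.54 among the genes at the level of Mir182, whose own ratio of 0.61 lay above it. At the level of Mir96 (-0.58) the SD was 0.97 and at that of Mir183 (0.03) 0.95, and both members lay within it. In size, 8 of 32 ratios were larger than that of Mir182 and 15 of 40 larger than that of Mir96. These SDs come from the same libraries and are a description too.

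**Figure D4:**
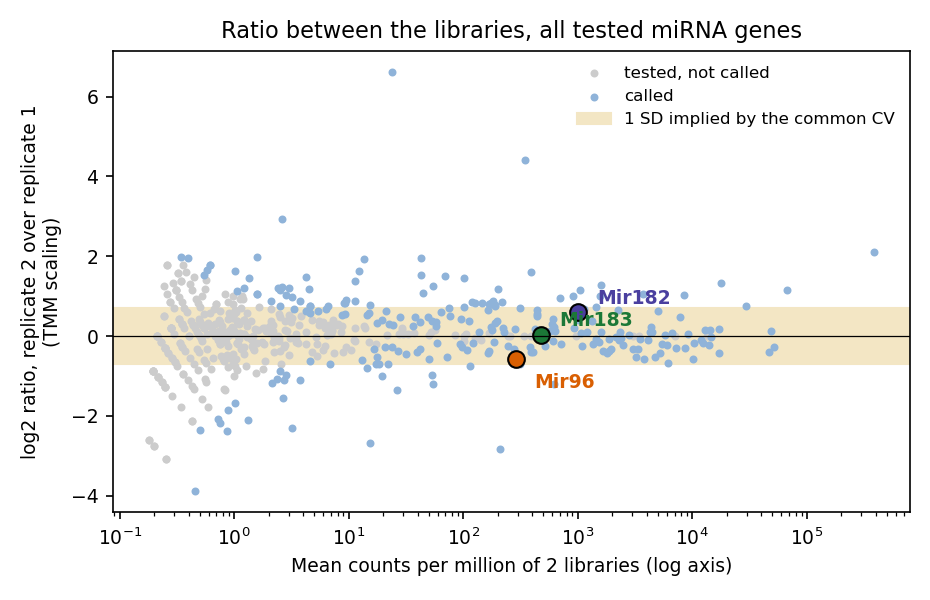
Each point is a tested miRNA gene, with its mean CPM on a log axis against the TMM-scaled log2 ratio of replicate 2 over replicate 1. The band marks 1 SD (0.70) either side of 0, estimated over the tested genes of these same libraries. The 3 members lie inside it at -0.58 (Mir96), 0.03 (Mir183) and 0.61 (Mir182).

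Neighbouring hairpins of other loci served as a yardstick for the differences inside the cluster. Pairs were taken as next neighbours among tested genes on the same strand with a gap of at most 10 kb. The log2 ratios of Mir96 and Mir183 were 0.61 apart, and the median over 92 other pairs was 0.64. Mir182 and Mir96 were 1.19 apart, and 15 of the 92 pairs were further apart. Among 44 other pairs with at least 1000 counts in both genes, a limit chosen after the data had been seen, the median was 0.50. Of these, 18 were further apart than Mir96 and Mir183, and 5 further than Mir182 and Mir96. Pairs share the libraries, so this is a description and carries no p-value.

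**Figure D5:**
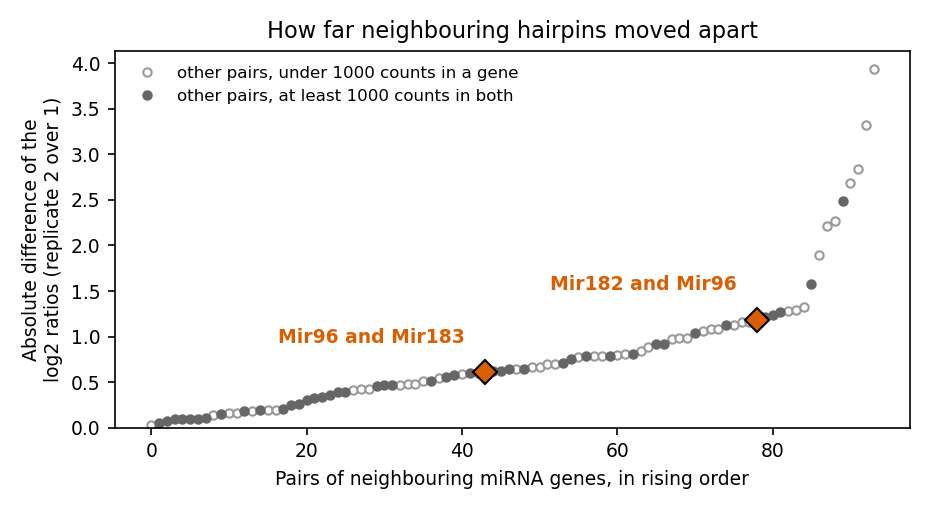
Each point is a pair of neighbouring miRNA genes, placed in rising order by the absolute difference of their log2 ratios of replicate 2 over replicate 1. The pair of Mir96 and Mir183 stands at 0.61 and that of Mir182 and Mir96 at 1.19 (diamonds).

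The genes most like each member between the libraries were sought among those within 2-fold of its mean CPM, by the smallest difference in log2 ratio over the 2 libraries. For Mir183 these were Mir421, with 442 and 239 CPM, and Mir339, with 317 and 171 CPM, each 0.02 away. For Mir182 they were Mir195a, with 1215 and 1045 CPM and 0.07 away, and Mir145a, with 1530 and 1363 CPM and 0.12 away. For Mir96 they were Mir467c, with 472 and 156 CPM and 0.12 away, and Mir449a, with 235 and 94.6 CPM and 0.17 away. With 2 libraries such a likeness rests on a single ratio.

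Other miRNAs reported to act on Foxo1 or Foxo3 were taken as a list of 20 genes. Of these, 14 were detected, and the list summed to 67750 and 39140 CPM, against 2151 and 1399 CPM for the cluster. Its highest genes were Mir29a, a repressor of collagens, at 19150 and 10130 CPM, and Mir221, a repressor of the cell cycle inhibitor p27, at 16710 and 7930 CPM. Mir27a had 9007 and 6694 CPM, and Mir155, known from immune cells, 8517 and 4850 CPM. All 4 were above each member of the cluster in both libraries. The hairpins of 10 of the 20 genes, Mir27a among them, share a stretch of 20 bases with another hairpin, so their levels are uncertain. Mir486 had no sequence in that table.

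Of the 15 tested genes on this list, 9 were called higher and 4 lower in replicate 2, beside 24.6% and 16.9% of all tested genes. Genes with many reads are called more often than that. Within 2-fold of the levels of Mir96, Mir183 and Mir182, 85.0%, 87.1% and 96.9% of genes were called. The list was not set against genes of its own levels. The median log2 ratio of the tested list genes was 0.16, against 0.09 over all tested genes. By library totals the split of the list was 0 higher and 13 lower, beside 4.68% and 54.7% of all tested genes. By totals without Mir21a it was 4 and 7, beside 16.9% and 24.8%. The largest called ratios were in Mir223, with only 12 reads in each library and a log2 ratio of 1.78, Mir135a-2, with 58 and 31 reads and 0.89, and Mir486, with 109 and 17 reads and -0.87. Mir96 and Mir182 differed by less than these 3. The abundant Mir29a and Mir221 differed by -0.02 and -0.18.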

How the data were processed

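Each deposited table holds whole-number read counts made by the authors for 2202 miRNA genes, for reads on either strand, on the strand of the gene and on the opposite strand. The build (mm10) and annotation (GENCODE M21) are named in the deposited readme files, and the labels point to an adapter trimming protocol. No source used here names the aligner or the counter. Replicate 1 held 27661907 gene-strand counts and replicate 2 15025315. Rows that name no gene, 49.7% and 38.8% of all reads (33.4% and 22.8% of all reads mapped to several places), stayed out of totals and tests.

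TMM scaling and the coefficient of variation came from edgeR 4.0.16 in R 4.3.3, and the exact binomial test from scipy 1.17.1, with a threshold of 0.05 and a prior count of 0.5 in log2 ratios. A group of 2 libraries leaves nothing for a quasi-likelihood test. The test was run on simulated counts of the 556 genes that held no noise beyond counting. It found 74 of 100 genes with a 2-fold rise and 52 of 100 with a fall to 0.5-fold, and called 2 unchanged genes. The real libraries vary beyond counting (common coefficient of variation 34.3%), so these numbers do not give the error rate in them. Alternatives were DESeq2 1.42.0 size factors, other totals, filters at 1 and 50 counts, reads of either strand and each library alone. Sequences are RefSeq (GRCm38.p6) and GENCODE M21 reference sequences, matched by symbol, and not those of the C3H strain. All 3 members matched in both. Besides the members and Mir21a, the text names the genes next to each member in mean CPM, the 2 nearest in log2 ratio, the 4 highest and 3 largest called ratios of the FoxO list, the neighbouring protein-coding genes and leading tissue markers. Members and lists were chosen with earlier results of these data known.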

Additional observations from a re-analysis of the deposited data

Results flagged for a closer look

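The opposite-strand column, which the levels do not use, held reads on 2 members above the 3 counts that a count of 0 allows. Mir183 had 9 such reads in replicate 1 and 5 in replicate 2, or 0.0531% and 0.0991% of its reads on both strands. Mir182 had 12 in replicate 1, or 0.0389%, and 3 in replicate 2. Mir96 had 0 in both libraries. No control library was analysed here.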

How the results depend on the processing

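The order of the members by level and share held under every alternative run for them, and Mir96 was called lower in replicate 2 under each of 6 scalings, filters and strand settings. The shares themselves ranged with each library alone from 51.9% to 65.2% for Mir182, 24.0% to 28.5% for Mir183 and 10.8% to 19.7% for Mir96. Mir182 was called higher under all but library totals (-0.29). The log2 ratio of Mir183 lay near 0 and turned with the setting. It was -0.031 with DESeq2 size factors, -0.87 by library totals, -0.14 by totals without Mir21a, -0.012 without a filter and -0.0054 at 50 counts. With totals without Mir21a the mean levels rose to 759 CPM for Mir183, 438 for Mir96, 1706 for Mir182 and 2903 for the cluster. Per 1000000 reads of any kind they were 257, 153, 559 and 968. Calls over all genes moved to 26 higher (4.68%) and 304 lower (54.7%) by library totals. By totals without Mir21a they were 94 higher (16.9%) and 138 lower (24.8%). Those on the FoxO list moved to 0 higher and 13 lower by library totals, and to 4 higher and 7 lower by totals without Mir21a. With each library alone, levels ranged from 336 to 612 CPM for Mir183, 152 to 423 for Mir96 and 912 to 1116 for Mir182. No ratio can be had without a replicate. No paired analysis was possible because there is only 1 group. Depth did not limit the members, whose fewest reads were 2279, but 2 libraries limit every statement on spread.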

Other observations

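The start of the host transcript Mirc35hg, which spans all 3 hairpins, was read as 250 bases before to 50 after the annotated start in RefSeq, at chr6:30174076-30174375 on the minus strand (GRCm38.p6). Capitals mark matches, on either strand, to the E-box CANNTG, bound by myogenic and other basic helix-loop-helix factors, and to the GC box GGGCGG.
Mirc35hg: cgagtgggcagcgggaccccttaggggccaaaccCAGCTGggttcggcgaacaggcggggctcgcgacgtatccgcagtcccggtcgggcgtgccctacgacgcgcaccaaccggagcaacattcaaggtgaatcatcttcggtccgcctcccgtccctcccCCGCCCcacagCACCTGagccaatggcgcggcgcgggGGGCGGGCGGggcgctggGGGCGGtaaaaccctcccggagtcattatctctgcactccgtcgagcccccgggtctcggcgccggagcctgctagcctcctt
The window held 70.3% G and C, against a median of 52.7% over 32851 promoter windows of this length. It held 2 matches to CANNTG, found in 72.3% of the windows, of which 1 was CAGCTG, found in 16.3%. It held 4 matches to GGGCGG, some overlapping, found in 35.7%. The forkhead motif GTAAACA had 0 matches and was found in 3.65% of the windows. These are descriptions of the letters in this window, and no binding was measured.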
